A study of Mus musculus with 12 samples.

Results

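The zinc finger genes named Zfp, Zbtb, Zkscan or Zscan were examined in spleen T cells of mice after repeated social defeat. Members were the genes listed in any of 8 tables whose symbol starts with Zfp and a digit, Zbtb, Zkscan or Zscan, leaving out the Zfp36 family, whose CCCH fingers bind RNA. The rule found 41 of 3684 listed genes: 31 Zfp, 8 Zbtb, 2 Zkscan and 0 Zscan. Of these, 30 were listed for CD4 cells and 30 for CD8a cells, with 19 in both. No source used here gives the property that put a gene in a table, and genes outside the tables are not analysed here.

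The 12 mice fell into 4 groups of 3: C57Bl6/J mice (wild type) without stress, S100a9-/- C57Bl6/J mice (knockout) without stress, and each genotype after repeated social defeat, in which a mouse is exposed again and again to an aggressor. The stress paradigm ran for 10 days, behaviour was tested for 1 day and spleens were taken on day 12. Dissociated splenocytes, with erythrocytes lysed, were sequenced as single cells by 10x Genomics 3' chemistry, which tags the polyadenylated end of each RNA. The deposited values are average expression per mouse in CD4 cells and in CD8a cells. The sources used here do not say how the S100a9 allele was made. The design asks which genes stress changes in T cells and if that depends on S100a9, a calcium-binding protein of neutrophils.

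Most Zfp genes encode proteins with tandem C2H2 fingers, each folding around a zinc ion and reading a few bases of DNA. Those with a KRAB domain recruit Trim28 and silence chromatin, and many keep transposable elements off. Zbtb proteins pair through a BTB domain, recruit corepressors such as Ncor1, and include regulators of lymphocyte development. Not every symbol in the set stands for such a protein. Zbtb8os encodes Archease, a cofactor of the tRNA ligase, and lies opposite to Zbtb8a. Zbtb11os1 is a noncoding RNA opposite to Zbtb11, and Zfp783 and Zfp862-ps are annotated as pseudogenes. Whether counting used the strand is not stated in the sources used here. If it did not, reads of Zbtb11os1, Zbtb8os and Zbtb37 could not be separated from those of the genes opposite to them.

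The labels were first checked against markers, in the authors' normalised units, apparently molecules per 10000 of a cell. Cd4 averaged 1.66 to 3.01 across the 12 mice in CD4 cells, where Cd8a averaged 0.0526 to 0.269. Cd8a averaged 3.38 to 5.27 in CD8a cells, for which Cd4 was not listed. S100a9 was low throughout. In CD4 cells without stress it was higher in the mice labelled knockout (0.0418 to 0.0493) than in wild-type mice (0.00449 to 0.0167), against the label, and under stress it was lower in them (0.0228 to 0.0294 against 0.0595 to 0.111). In CD8a cells the unstressed groups overlapped, at 0.0307 to 0.0461 and 0.00415 to 0.0337. Because the sources used here do not give the part of the transcript removed, this 3' tag checks nothing. The mitochondrial gene mt-Nd3 did separate the labelled genotypes in CD4 cells, at 0.993 to 2.77 in wild-type mice and 0 to 0.00857 in mice labelled knockout. The labelled genotypes thus differ in a gene other than S100a9. Effects of S100a9 loss cannot be told apart from other differences between the labelled genotypes. Knockout below means the mice so labelled. The listed genes summed to between 7367 and 8270 of the 10000 units. The depth and the number of cells behind each average are unknown, and fewer expressing cells cannot be told apart from less RNA per cell.

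Promoters show how unlike the start regions of these genes are, and 29 of the 41 symbols matched RefSeq's table (GRCm38.p6), with 30 promoters of 300 bases, 250 before to 50 after the start. The 4 printed here belong to Zbtb20, which had the largest log2 change in wild-type CD4 cells after stress, Zfp292 and Zbtb1, which also fell, and Zbtb8os, which was not called lower. They lie at chr16:43247034-43247333 on the plus strand, chr4:34882899-34883198 on the minus strand, chr12:76370270-76370569 on the plus strand and chr4:129335718-129336017 on the plus strand. Sequences run 5′ to 3′, and capitals mark matches to the motifs searched on both strands: GGGCGG (GC box), CCAAT (as written), TATAAA (core promoter box), CCGGAAG (ETS site), AANATGGCG (YY1 site), and, by name, the NRF1 site, the CGCG palindrome and the glucocorticoid response element.
Zbtb20: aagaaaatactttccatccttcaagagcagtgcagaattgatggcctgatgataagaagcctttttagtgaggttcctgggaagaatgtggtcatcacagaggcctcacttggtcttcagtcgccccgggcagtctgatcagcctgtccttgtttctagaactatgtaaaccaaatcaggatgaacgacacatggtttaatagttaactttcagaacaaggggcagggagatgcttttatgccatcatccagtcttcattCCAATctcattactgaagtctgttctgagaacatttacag
Zfp292: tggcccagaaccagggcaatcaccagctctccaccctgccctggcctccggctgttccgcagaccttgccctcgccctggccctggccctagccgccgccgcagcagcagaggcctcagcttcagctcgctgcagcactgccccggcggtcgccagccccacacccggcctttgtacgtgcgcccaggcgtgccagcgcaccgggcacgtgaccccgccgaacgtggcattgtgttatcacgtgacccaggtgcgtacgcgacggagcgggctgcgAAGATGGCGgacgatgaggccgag
Zbtb1: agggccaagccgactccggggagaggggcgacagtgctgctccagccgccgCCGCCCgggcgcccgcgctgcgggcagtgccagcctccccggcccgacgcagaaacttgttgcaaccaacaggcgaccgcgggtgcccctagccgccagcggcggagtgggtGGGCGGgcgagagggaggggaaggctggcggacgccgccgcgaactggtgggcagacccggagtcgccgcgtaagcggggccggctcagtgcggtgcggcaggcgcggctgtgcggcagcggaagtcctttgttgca
Zbtb8os: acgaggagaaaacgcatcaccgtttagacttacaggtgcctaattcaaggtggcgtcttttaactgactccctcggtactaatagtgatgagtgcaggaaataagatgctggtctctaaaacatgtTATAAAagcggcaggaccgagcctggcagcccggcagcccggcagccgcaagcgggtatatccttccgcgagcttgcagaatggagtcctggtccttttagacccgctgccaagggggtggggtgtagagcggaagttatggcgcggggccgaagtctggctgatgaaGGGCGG

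The Zbtb20 window held 43.3% G and C with 1 CCAAT match, and the Zbtb1 window 75.0% G and C with 2 GC boxes on opposite strands. The annotated Zbtb20 gene begins upstream, at base 42875881 of chromosome 16, so its window lies at an internal start. The YY1 match of Zfp292 began 27 bases after the start. Over the 30 member promoters, the GC box was present in 56.7%, against 35.7% of all 32851 promoters in the table, and CCAAT in 33.3%, against 37.4%. TATAAA was present in 13.3%, against 13.6%, and the ETS letters in 16.7%, against 8.86%. The YY1 letters were in 10% of member promoters, against 2.38%, all 3 of them among the 22 promoters of members that fell. The NRF1 site was in 1 member promoter, against 4.60% of all, and the CGCG palindrome in none, against 0.466%. The glucocorticoid response element was in none, and in 3 of the whole table. The GC box was in 12 of the 22 promoters of members that fell and in 5 of the other 8. These are matches of letters in a short window and describe no binding.

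After stress, the summed expression of the zinc finger genes was lower in both T cell types and both genotypes. In CD4 cells the 30 members summed to 20.5 ± 0.144 units in wild-type controls and 11.8 ± 0.373 in stressed wild-type mice (mean ± SD, n = 3 each), and to 20.7 ± 0.153 and 12.8 ± 0.254 in knockout mice. In CD8a cells the corresponding sums were 22.2 ± 0.344 and 12.9 ± 0.639, then 22.5 ± 0.184 and 14.1 ± 0.0822. Every stressed mouse lay below every control mouse. As a share of the sum over all listed genes, the members went from 0.272% to 0.143% in wild-type CD4 cells and from 0.293% to 0.157% in wild-type CD8a cells.

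**Figure D1:**
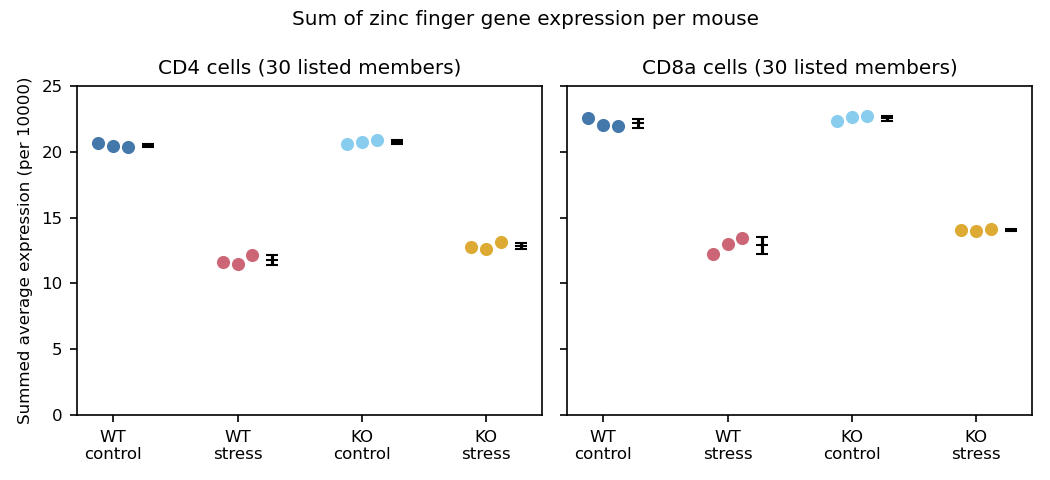
Summed average expression of the 30 listed members per mouse (points; y axis per 10000) by group, in CD4 (left) and CD8a cells (right), with mean and SD of 3 mice beside the points. Control mice sit between 20.4 and 22.7 and stressed mice between 11.5 and 14.1.

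Changes were tested with limma on log2(value + 0.1), 3 mice against 3, with Benjamini-Hochberg adjustment over all genes listed for the comparison. Genes with an adjusted p under 0.05 are named as called, lower or higher. Log2 changes are on this scale, with SE, and understate the change of low genes. The p-values rest on the spread between the 3 mice within each group, pooled and moderated by that of the other genes tested. In wild-type CD4 cells, 19 of the 25 listed members were called lower (all genes: 28.9%) and 1 higher (all genes: 31%), and 5 were not called. The median log2 change of the members was -0.80, against 0.15 over the 2413 genes tested. In wild-type CD8a cells, 20 of 24 were called lower (all genes: 41.5%), 2 higher (all genes: 26.7%) and 2 were not called, with medians of -0.78 and 0.09 over 2108 genes.

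In knockout mice fewer members were listed for the stress comparison. In CD4 cells 8 of 16 were called lower (all genes: 20%) and 0 higher (all genes: 19.5%), with 11 of the 16 at an unadjusted p under 0.05 in either direction. In CD8a cells 7 of 15 were called lower (all genes: 22.1%) and 1 higher (all genes: 17.9%). Fitted over every gene listed for the cell type, which gives a value to all 30 members, 18 of 30 were called lower in knockout CD4 cells (all genes: 28.1%) and 20 of 30 in knockout CD8a cells (all genes: 34.4%). Of the members not listed for the comparison, 10 of 14 and 13 of 15 were called lower in that fit. The share over all genes not listed for it was not worked out. The shares above include listed genes and are no background for these counts. Over the listed members the median was -0.34 in CD4 cells, against 0.13 over 1898 genes, and 0.07 in CD8a cells, against 0.11 over 2023, where 8 of the 15 were positive and 7 negative. In the wider fit the members' medians were -0.56 and -0.58, against 0.00 and 0.01 over all genes of the cell type. Values below for a member not listed for a comparison come from this wider fit.

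**Figure D2:**
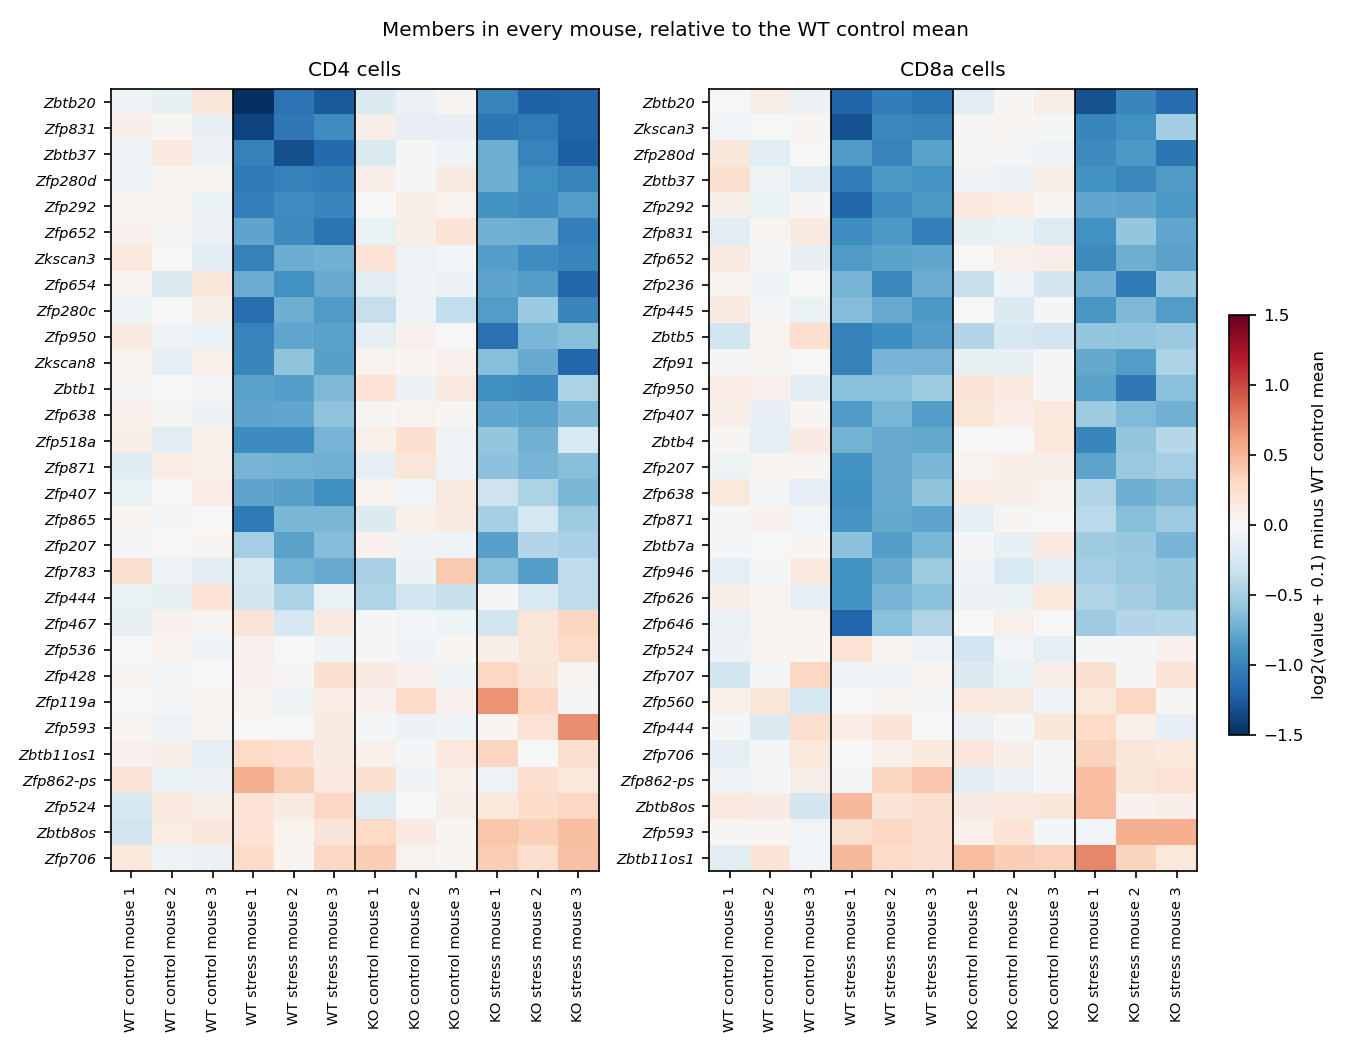
Each member (row) in each mouse (column), as log2(value + 0.1) minus the wild-type control mean, in CD4 (left) and CD8a cells (right), with blue lower and red higher. The stressed mice of both genotypes are blue for the same block of rows, led by Zbtb20, and pale to red for 10 members at the bottom in CD4 cells and 9 in CD8a cells.

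On the log2 scale used here, Zbtb20 had the steepest fall of the Zbtb genes in all 4 stress comparisons. Zbtb20 encodes a transcriptional repressor used by plasma cells and memory T cells. In CD4 cells it averaged 2.00, 1.93 and 2.37 in the wild-type control mice and 0.591, 0.921 and 0.818 in the stressed ones. In knockout mice the values were 1.81, 1.97 and 2.15 without stress and 0.994, 0.845 and 0.856 with it. Controls and stressed mice did not overlap in either genotype, and stressed wild-type mice had 37.0% of the control mean. By that ratio, which uses no pseudocount, Zbtb37 at 34.8% and Zfp280c at 30.8% were lower. The log2 change was -1.34 ± 0.13 (limma, adjusted p = 8.29e-06) in wild type and -1.06 ± 0.10 (adjusted p = 1.71e-06) in knockout mice. In CD8a cells Zbtb20 went from 1.96, 2.11 and 1.84 to 0.796, 0.907 and 0.867 in wild type, a change of -1.11 ± 0.09, and changed by -1.12 ± 0.10 in knockout mice.

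Zbtb37, a little-studied BTB gene, was also among the steepest. In CD4 cells it averaged 0.532, 0.627 and 0.516 in wild-type controls and 0.227, 0.163 and 0.194 after stress. The groups were well apart, and the log2 change was -1.16 ± 0.12, with -0.88 ± 0.14 in knockout mice. In CD8a cells it changed by -0.93 ± 0.13 and -0.89 ± 0.11. The last 300 bases of its annotated transcript are also part of Serpinc1 on the opposite strand. Its level is thus uncertain if counting ignored the strand.

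Zbtb1, required for lymphoid development, was listed for CD4 cells. It averaged 0.965, 0.954 and 0.937 in wild-type controls and 0.504, 0.495 and 0.557 after stress, with no overlap. The change was -0.77 ± 0.09 (limma, adjusted p = 2.35e-05), and -0.88 ± 0.14 in knockout mice. Zbtb7a, which takes part in lineage choice of lymphocytes, was listed for CD8a cells. It averaged 1.55, 1.56 and 1.60 in wild-type controls and 0.989, 0.847 and 0.937 after stress, the mildest of the called falls listed for that comparison at -0.71 ± 0.09, with -0.59 ± 0.09 in knockout mice. Zbtb4, which binds methylated DNA, changed in CD8a cells by -0.74 ± 0.11 in wild type and -0.72 ± 0.14 in knockout mice.

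Zbtb5 was the Zbtb gene whose fall differed most between genotypes in size. In CD8a cells it averaged 0.166, 0.238 and 0.288 in wild-type controls and 0.0621, 0.0717 and 0.0849 after stress. Knockout mice had 0.140, 0.176 and 0.169 without stress and 0.118, 0.117 and 0.122 with it, again without overlap but closer together. It was called lower in wild type (-0.92 ± 0.15, limma adjusted p = 7.64e-05) and was not called in knockout mice (-0.25 ± 0.11, adjusted p = 0.0794). The test of that difference is given with the genotype comparisons and did not pass.

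Both Zkscan genes, which carry a SCAN and a KRAB domain beside their fingers, were lower. Zkscan3, known as a repressor of autophagy genes, averaged 0.937, 0.960 and 0.992 in wild-type CD8a controls and 0.331, 0.444 and 0.432 after stress. Stressed mice had 41.8% of the control mean, and the change was -1.09 ± 0.11 (limma, adjusted p = 4.08e-06). In knockout CD8a cells it changed by -0.81 ± 0.12, with 1 stressed mouse at 0.643 above the others at 0.440 and 0.467. In CD4 cells it changed by -0.83 ± 0.12 in wild type and -0.95 ± 0.12 in knockout mice. Zkscan8, listed for CD4 cells, changed by -0.80 ± 0.13 and -0.91 ± 0.15.

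Zfp292, a large zinc finger protein, had one of the highest averages and one of the tightest falls. Its CD4 averages were 2.72, 2.75 and 2.46 in wild-type controls and 1.24, 1.33 and 1.29 after stress, and 2.64, 2.83 and 2.75 against 1.38, 1.34 and 1.43 in knockout mice. Stressed mice had 48.8% and 50.4% of their control means. The log2 change was -0.98 ± 0.08 (limma, adjusted p = 3.58e-06) in wild type and -0.94 ± 0.08 in knockout mice. In CD8a cells it was -0.99 ± 0.10 and -0.90 ± 0.08.

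Zfp831, which is poorly characterised, had the largest log2 fall of the Zfp genes in CD4 cells, though Zfp280c had the lower percent of control in wild type (30.8% against 38.0%). It averaged 0.705, 0.672 and 0.603 in wild-type controls and 0.192, 0.262 and 0.298 after stress. Knockout mice went from 0.709, 0.597 and 0.598 to 0.259, 0.266 and 0.231. The groups were apart in both genotypes, with changes of -1.13 ± 0.13 and -1.06 ± 0.12. In CD8a cells it changed by -0.94 ± 0.12 in wild type and -0.61 ± 0.12 in knockout mice.

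**Figure D3:**
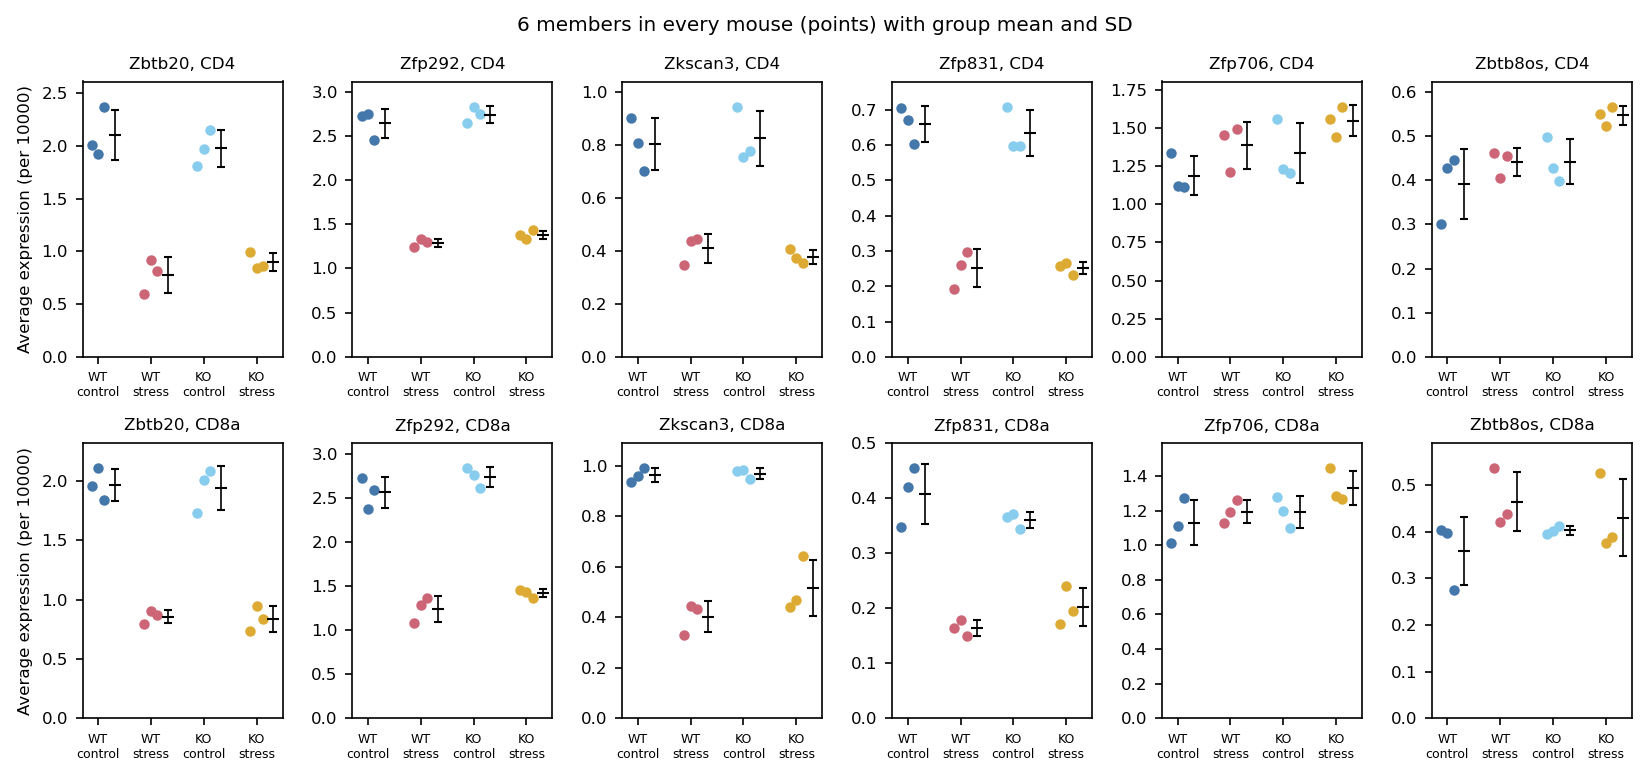
Average expression (y axes per 10000, each starting at 0) of 6 members in every mouse (points), with the group mean and SD of 3 mice, in CD4 cells (top) and CD8a cells (bottom). Zbtb20, Zfp292, Zkscan3 and Zfp831 are lower in all stressed mice, while those of Zfp706 and Zbtb8os lie within or above the range of the 6 control mice.

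The other Zfp genes with large falls in wild-type CD4 cells were Zfp280d at -1.04 ± 0.09, Zfp652 at -0.95 ± 0.10, Zfp280c at -0.90 ± 0.13, Zfp518a at -0.86 ± 0.12 and Zfp950 at -0.86 ± 0.11. They were followed by Zfp407 at -0.84 ± 0.11, Zfp865 at -0.81 ± 0.13 and Zfp654 at -0.80 ± 0.13. Zfp280d, the steepest of these, averaged 0.968, 1.04 and 1.03 in controls and 0.434, 0.450 and 0.441 after stress. All 19 called falls in this comparison had groups that did not overlap (29.1% of all genes tested did so in this direction). The mildest was that of the pseudogene Zfp783, at -0.57 ± 0.16.

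In wild-type CD8a cells, Zfp280d changed by -0.89 ± 0.11, Zfp871 by -0.81 ± 0.09, Zfp652 by -0.81 ± 0.09 and Zfp91, a ubiquitin ligase of NF-kB signalling, by -0.81 ± 0.11. Zfp236 changed by -0.80 ± 0.12, Zfp407 by -0.79 ± 0.12 and Zfp207, which helps to load spindle checkpoint proteins, by -0.78 ± 0.09. Zfp638, which silences unintegrated retroviral DNA, changed by -0.76 ± 0.11. Zfp207 averaged 1.52, 1.65 and 1.67 in controls and 0.820, 0.913 and 0.966 after stress. In knockout CD8a cells the listed falls included Zfp950 at -0.95 ± 0.12, Zfp280d at -0.94 ± 0.10, Zfp652 at -0.89 ± 0.09, Zfp207 at -0.71 ± 0.09 and Zfp638 at -0.70 ± 0.09. Zfp638 and Zfp706 end in sequence shared with 59 and 18 other annotated genes, so their averages depend on how shared reads were counted.

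Few members were called higher, namely Zbtb11os1 and Zfp593 in 1 comparison each and Zfp862-ps in 2. In wild-type CD8a cells the antisense RNA Zbtb11os1 averaged 0.0704, 0.116 and 0.0846 in controls and 0.166, 0.130 and 0.126 after stress, a change of 0.34 ± 0.13 (limma, adjusted p = 0.0359). Zfp593, a ribosome biogenesis factor, went from 0.308, 0.313 and 0.293 to 0.378, 0.401 and 0.387, a change of 0.27 ± 0.10 (adjusted p = 0.0336). Neither pair of groups overlapped (31.8% of all genes tested did so in this direction). Both calls rest on single mice: that of Zbtb11os1 was lost without control mouse 1 or 3 or stressed mouse 1 or 2, and that of Zfp593 without any control mouse or without stressed mouse 2 or 3.

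The pseudogene Zfp862-ps was called higher in wild-type CD4 cells, at 0.132, 0.0896 and 0.0915 in controls and 0.195, 0.160 and 0.126 after stress. Here the groups overlapped, and the change was 0.35 ± 0.14 (limma, adjusted p = 0.0460). It was called again in knockout CD8a cells (0.37 ± 0.12, adjusted p = 0.0178), where values went from 0.0566, 0.0635 and 0.0711 to 0.139, 0.0970 and 0.103 without overlap (26.6% of all genes tested did so in this direction). In the other stress comparisons it changed by 0.02 ± 0.13 and 0.23 ± 0.13, neither called. The first call was lost without control mouse 2 or 3 or stressed mouse 1 or 2, and the other without control mouse 1 or 2 or stressed mouse 1. Its averages are near the pseudocount of 0.1, so the true ratio is larger than these log2 values.

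Zbtb8os, the tRNA ligase cofactor, was not called in any stress comparison. Its log2 changes were 0.15 ± 0.13 and 0.26 ± 0.12 in CD4 cells and 0.31 ± 0.14 and 0.07 ± 0.13 in CD8a cells, wild type first. Zfp706, a small protein reported to act in translational control, averaged 1.33, 1.12 and 1.11 in wild-type CD4 controls and 1.45, 1.21 and 1.49 after stress. These overlapped, and its changes across the 4 comparisons ran from 0.08 ± 0.10 to 0.21 ± 0.11, none called.

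Across the 4 stress comparisons, fitted over all genes of the cell type, 26 of the 41 members were called lower wherever they had a value, 13 were called lower nowhere, and Zbtb5 and Zfp783 were called lower in some. Of all genes, 27.7% (CD4) and 35.4% (CD8a) were called lower in wild type in these fits, and 28.1% and 34.4% in knockout mice. Of the 19 members with values in both cell types, 12 were lower in all 4 comparisons and 7 in none. The shares of all genes lower wherever they had a value, or lower in all 4 comparisons, were not worked out. The single-comparison shares are no background for these counts. The 26 were all protein-coding, with longest annotated transcripts of 2898 to 26901 bases and a median of 7172, Zbtb20 being the longest. The 13 had transcripts of 1182 to 6065 bases with a median of 3619. They were Zbtb11os1, Zbtb8os, Zfp119a, Zfp428, Zfp444, Zfp467, Zfp524, Zfp536, Zfp560, Zfp593, Zfp706, Zfp707 and Zfp862-ps. Several of these have low averages, where a fall is understated, such as Zfp119a at 0.0839 over the 12 mice in CD4 cells. Zfp706 was higher, at 1.36, and some of the 26 were low too, such as Zfp280c at 0.123. The part of level in this split was not tested.

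Transcript length went with the fall in members as it did in all listed genes. Of the 16 members with transcripts of 5000 bases or more, 14 were called lower in wild-type CD4 cells, which is 87.5%, against 87.4% of the 486 listed genes of that length. In wild-type CD8a cells it was 16 of 18, or 88.9%, against 93.2% of 541. Between 2000 and 5000 bases, 5 of 10 members were lower in wild-type CD4 cells, against 33.0% of listed genes, and under 2000 bases 0 of 4, against 6.05%. The 10 include Zfp536 and the 4 include Zfp428, both too low to show a fall. Among the longest transcripts the share of members that fell is thus near that of other genes. Across the 30 members, Pearson's r between log2 length and log2 change was -0.75 in wild-type and -0.74 in knockout CD4 cells, and -0.66 in both genotypes in CD8a cells. Over all listed genes with a length the values were -0.65, -0.67, -0.71 and -0.70. These r describe genes measured in the same mice, which are not independent replicates.

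**Figure D4:**
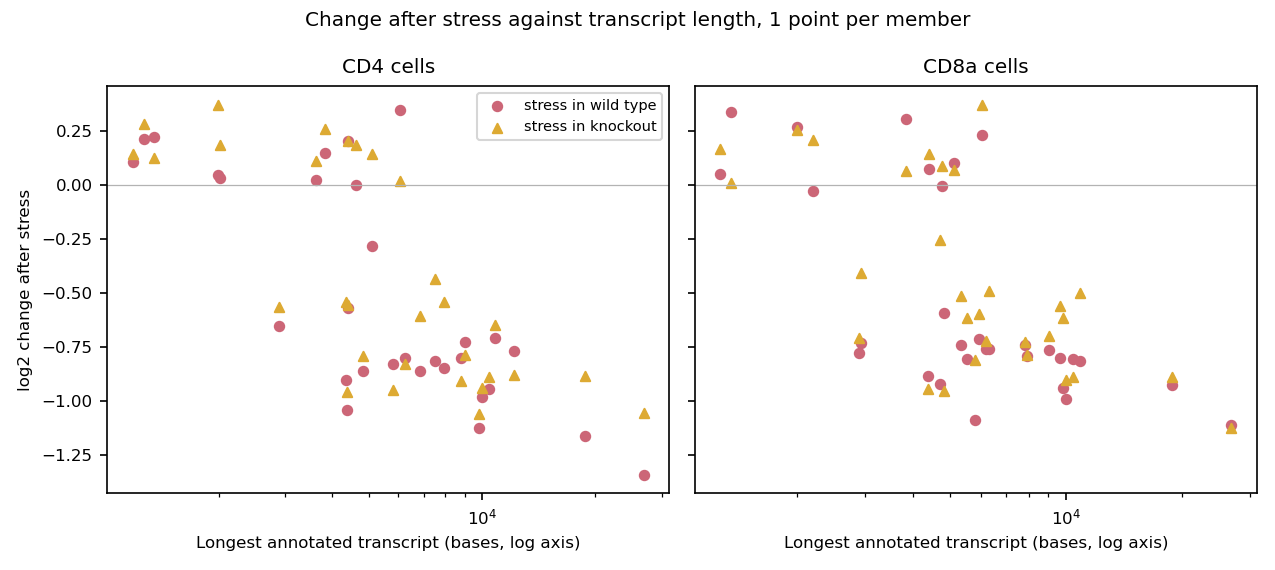
Log2 change after stress (y axis) against the longest annotated transcript in bases (log x axis), 1 point per member and genotype, in CD4 (left) and CD8a cells (right). Members under 2000 bases lie above 0 and the longest, Zbtb20 at 26901 bases, lies at the bottom.

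Listed partner genes of these proteins were mostly called lower. Of a list of 14 KRAB corepressor genes, 4 were listed for wild-type CD4 cells and 3 were called lower, and in wild-type CD8a cells both listed genes were (all genes lower: 28.9% and 41.5%). In knockout mice 3 of 4 (CD4) and 2 of 3 (CD8a) were lower (all genes: 20% and 22.1%). Atf7ip, which stabilises the H3K9 methyltransferase Setdb1, changed by -0.79 ± 0.11 in wild-type and -0.69 ± 0.09 in knockout CD4 cells. The central corepressor Trim28 was not called, at 0.06 ± 0.11 in knockout CD4 and -0.02 ± 0.11 in knockout CD8a cells. Of 9 BTB cofactors, 3 of 3 listed were lower in wild-type CD4 and 5 of 5 in wild-type CD8a cells, and 2 of 2 in each cell type of knockout mice. The remodeller Chd4 is in both lists and counts in each. Among them the acetyltransferase Ep300 changed by -0.75 ± 0.10 in wild-type CD4 cells and the corepressor scaffold Sin3a by -0.82 ± 0.11 in wild-type CD8a cells. Transcript length was not taken into account for these partner genes.

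Most listed zinc finger regulators of lymphocytes with other names fell. Of 40 such genes, 8 of 10 listed were lower and 1 higher in wild-type CD4 cells (all genes: 28.9% and 31%), and 10 of 11 lower and 1 higher in wild-type CD8a cells (all genes: 41.5% and 26.7%). In knockout mice 6 of 8 were lower and 1 higher in CD4 cells (all genes: 20% and 19.5%), and 5 of 6 lower and 0 higher in CD8a cells (all genes: 22.1% and 17.9%). Klf7 changed by -1.13 ± 0.17 and Klf3 by -1.04 ± 0.09 in wild-type CD4 cells. The gene that rose was Klf2, a quiescence and migration factor of naive T cells, at 0.34 ± 0.07 in wild-type CD4 cells and 0.25 ± 0.07 in both knockout CD4 and wild-type CD8a cells. The left-out CCCH genes Zfp36l1 and Zfp36l2 were lower in all 4 comparisons.

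No member was called between genotypes. Zfp444 was the only member listed for a genotype comparison, in CD4 cells without stress, and it averaged 0.134, 0.132 and 0.190 in wild-type and 0.0839, 0.106 and 0.0988 in labelled knockout mice. The groups did not overlap, and the change of -0.36 ± 0.17 was not called (limma, adjusted p = 0.0997, while 21.8% of the genes listed for it were called and 18.1% were lower without overlap). In fits over all genes of the cell type, 0 of 30 members were called in each of the 4 genotype comparisons. At an unadjusted p under 0.05 there were 1 and 4 of 30 in CD4 cells without and under stress, and 2 and 2 in CD8a cells. Few genes of any kind were called in these fits, 0.634% and 0.1% in CD4 cells without and under stress, and 0.772% and 0.21% in CD8a cells.

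The smallest p-values belonged to genes with modest changes. Under stress in CD4 cells these were Zfp865 at 0.38 ± 0.15 and Zfp407 at 0.35 ± 0.14, both with a limma adjusted p of 0.504, and Zbtb8os at 0.26 ± 0.11 (adjusted p = 0.565), each higher in labelled knockout mice. Zfp407, for example, averaged 0.232, 0.227 and 0.204 in stressed wild-type and 0.364, 0.315 and 0.257 in stressed knockout mice. In CD8a cells without stress they included Zbtb11os1 at 0.39 ± 0.11 (adjusted p = 0.134) and Zbtb5 at -0.32 ± 0.14 (adjusted p = 0.327). In CD8a cells under stress they included Zbtb5 at 0.34 ± 0.11 (adjusted p = 0.334) and Zfp871 at 0.28 ± 0.10 (adjusted p = 0.390).

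Whether stress acted differently in the 2 genotypes was tested as an interaction over all 12 mice. Of 30 members, 0 were called in CD4 cells and 0 in CD8a cells (all genes: 0% in both), with 1 and 3 at an unadjusted p under 0.05. A positive interaction means a smaller fall or a larger rise in knockout mice. The largest was that of Zbtb5 in CD8a cells, 0.67 ± 0.18 (limma, adjusted p = 0.623), and in CD4 cells Zfp444 stood at 0.43 ± 0.19 (adjusted p = 0.505). In CD8a cells Zfp871 stood at 0.31 ± 0.13 and Zfp950 at -0.36 ± 0.17. The interaction was positive for 23 of 30 members in CD4 cells, with a median of 0.07 against -0.05 over all genes, and for 22 of 30 in CD8a cells, with 0.08 against 0.01. The share of all genes with a positive interaction was not worked out. Members measured in the same mice are not independent replicates, so these sign counts show no difference between genotypes. The stressed sums were higher in knockout mice. They ran from 11.5 to 12.2 in wild-type and 12.6 to 13.1 in knockout CD4 cells, and from 12.2 to 13.5 and 14.0 to 14.1 in CD8a cells. The control sums were higher in knockout mice too, with overlapping ranges. Their means were 20.7 against 20.5 in CD4 cells and 22.5 against 22.2 in CD8a cells. The sums were not tested.

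**Figure D5:**
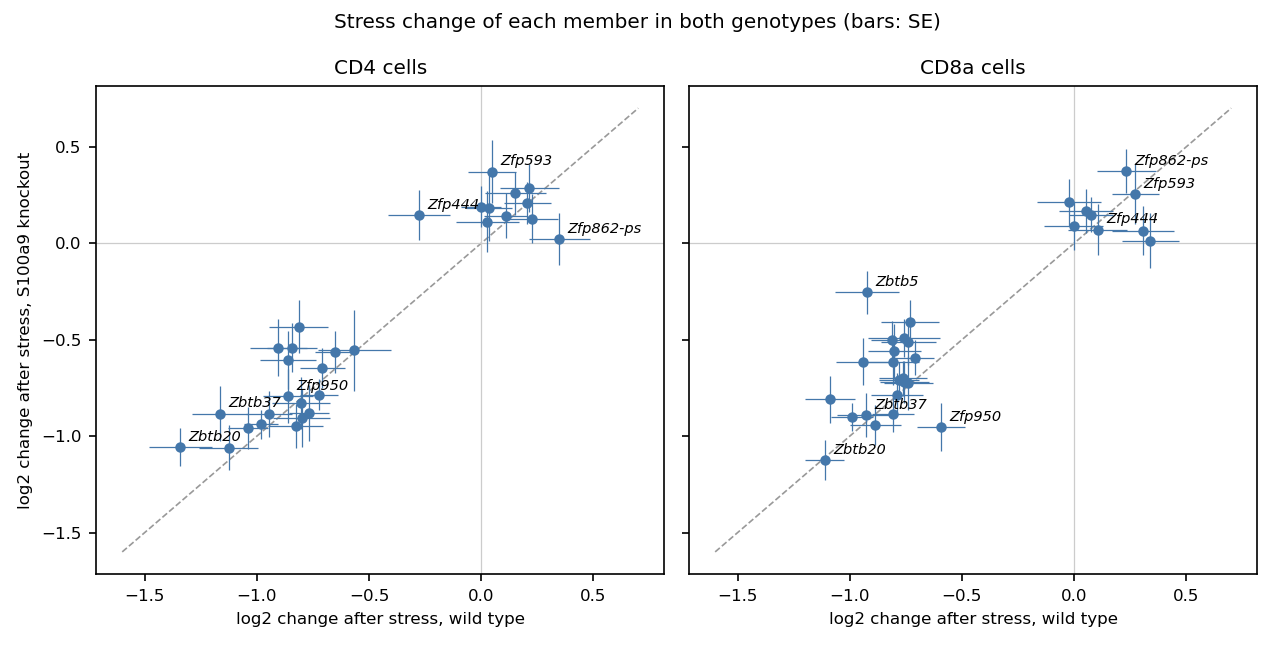
Log2 change after stress of each of the 30 members in knockout mice (y axis) against wild type (x axis), with SE bars, in CD4 (left) and CD8a cells (right), and the line of equality dashed. Members form a low block and a block near or above 0 in both genotypes, and Zbtb5 in CD8a cells lies farthest above the line, at -0.92 and -0.25.

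CD4 and CD8a cells of the same mouse were compared for the 19 members listed for both. A within-mouse difference, averaged over the 4 groups, was called for 11 of 19: 3 higher in CD8a cells (all genes: 17.3%) and 8 lower (all genes: 35.5%). Zfp831 was lower in CD8a cells in all 12 mice, by -0.47 ± 0.05 on the log2 scale (limma, adjusted p = 1.61e-05). In wild-type controls it averaged 0.348, 0.421 and 0.455 in CD8a cells against 0.705, 0.672 and 0.603 in CD4 cells. Zbtb37 was also lower in all 12, by -0.37 ± 0.06, followed by Zfp524 at -0.27 ± 0.04, Zfp862-ps at -0.26 ± 0.07, Zfp407 at -0.18 ± 0.04 and Zfp706 at -0.15 ± 0.05. The smallest called differences were those of Zfp207 and Zfp638, at -0.11 ± 0.04 and -0.10 ± 0.03. Zbtb11os1, Zkscan3 and Zfp652 were higher in CD8a cells, by 0.21 ± 0.05 in 10 of 12 mice, 0.20 ± 0.05 in 10 of 12 and 0.17 ± 0.04 in 11 of 12. The calls of Zfp207, Zfp638 and Zfp706 were lost with centring or without some single mice, Zfp706 without unstressed knockout mouse 1, and that of Zfp862-ps with centring. Zbtb20 and Zfp292 were not called, at -0.01 ± 0.05 and -0.02 ± 0.04.

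The highest averages over the 12 mice, counted as 3' tags and not divided by length, were those of Zfp292 (2.01), Zfp638 (1.45), Zbtb20 (1.44), Zfp207 (1.41) and Zfp706 (1.36) in CD4 cells. In CD8a cells they were Zfp292 (1.99), Zbtb20 (1.40), Zfp638 (1.35), Zfp207 (1.31) and Zbtb7a (1.27). At the other end, Zfp536 averaged at most 0.0272 and Zfp428 at most 0.0375 in any mouse in CD4 cells, so neither could show a fall on this scale.

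Marker genes of other cells moved beside these results. In CD4 cells the 8 listed of 11 natural killer markers, several of which activated T cells also express, summed to 3.05 to 4.94 in wild-type controls and 9.60 to 29.2 after stress, and to 4.78 to 8.60 and 14.7 to 41.3 in knockout mice. The 7 listed of 14 B cell markers overlapped in wild-type CD4 cells, at 3.44 to 8.95 and 4.32 to 7.08, and went from 7.51 to 11.2 to between 3.42 and 4.11 in knockout mice. In CD8a cells the 3 natural killer markers went from 13.6 to 19.0 to between 24.9 and 30.7 in wild type, and the 8 B cell markers from 7.0 to 12.7 to between 4.60 and 6.91. The 9 listed of 13 T cell markers summed to 51.8 to 53.8 in wild-type CD4 controls and 56.5 to 63.2 after stress, while Cd4 itself was called lower (-0.64 ± 0.08). The 8 listed for wild-type CD8a cells overlapped, at 56.2 to 59.9 and 58.1 to 59.6. There Cd3e changed by -0.41 ± 0.07 and Cd8b1 by -0.25 ± 0.06, both called lower in knockout mice too, where Cd8a was also called lower (-0.40 ± 0.08).

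Myeloid and erythroid markers also moved with stress in wild-type CD4 cells. The 4 listed of 12 neutrophil markers summed to 0.0118 to 0.0304 in controls and 0.116 to 0.323 after stress, and the 6 listed of 12 monocyte and dendritic markers to 2.70 to 2.95 and 3.63 to 4.51, with 4 of these 6 called higher. The 5 listed of 10 erythroid markers summed to 0.847 to 1.05 and 1.27 to 3.70, and all 5 were called higher. The neutrophil sum of wild-type CD8a cells went from between 0.00618 and 0.0474 to between 0.0981 and 0.265, and the monocyte and dendritic sum from 2.34 to 2.73 to between 2.96 and 3.2. In knockout CD4 cells the neutrophil sums overlapped (0.0796 to 0.280 and 0.225 to 0.449), as did the monocyte and dendritic sums (3.28 to 6.20 and 3.69 to 4.78) and the erythroid sums (1.52 to 6.65 and 2.94 to 6.27). Erythroid sums were highest in stressed knockout CD8a cells, at 2.24 to 17.0. Defining markers such as Ncr1 and Klrb1c for natural killer cells and Cd79a, Cd79b and Ms4a1 for B cells were not listed in these tables. The part of these cells in the members' values was not tested.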

How the data were processed

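Average expression per mouse in CD4 and CD8a cells was taken from 8 tables the authors deposited, 4 per cell type, as linear signal, apparently normalised to 10000 per cell. Per the submitters' processing notes, reads were processed with Cell Ranger 2.1.1 on mm10; cell typing, treatment of doublets, normalisation and the listing of genes are not given in the sources used here. Genes shared by tables held the same values. Changes were tested with limma 3.58.1 (R 4.3.3) on log2(value + 0.1) with a mean-variance trend and checked on simulated data; the deposited values hold no counts, so no count model was used. Coordinates and lengths come from GENCODE M21 (GRCm38). Named were all Zbtb and Zkscan members, per stress comparison the 10 other members with the largest called changes without overlap and those called against the majority, elsewhere the called members or the 3 smallest p, and the 5 highest averages per cell type. Members and lists were chosen with earlier results of these data known. Mouse numbers did not pair the mice. Alternatives were other pseudocounts, a filter on low values, centring, rescaling, other fits, a replicate block and leaving out each mouse.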

Additional observations from a re-analysis of the deposited data

How the results depend on the processing

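Counts of members called lower after stress were the same without any 1 mouse: 19 in wild-type CD4, 8 in knockout CD4, 20 in wild-type CD8a and 7 in knockout CD8a cells. None of these called falls lost its call without any 1 mouse. Fitted over every gene of the cell type, the knockout counts were 18 and 20, since all 30 members then have values. With the lowest 25% of genes removed, the wild-type counts were 15 in CD4 and 13 in CD8a cells. The count of CD8a minus CD4 was then 6 in place of 11. Fewer members were tested in each.

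Counts of members called higher were small and unstable. In wild-type CD4 cells the 1 became 0 with a pseudocount of 0.01, the filter on low values, rescaling or the wider fit, 2 with centring, and 0 to 2 without 1 mouse. In knockout CD4 cells the 0 became 1 with centring, without the trend or with all 4 groups in 1 fit, and 0 to 2 without 1 mouse (2 without control mouse 1, 1 without stressed mouse 1). In wild-type CD8a cells the 2 became 0 with the filter, 4 with centring and 0 to 1 without 1 mouse, and in knockout CD8a cells the 1 became 0 with the filter and 0 to 1 without 1 mouse. CD8a minus CD4 gave 9 to 12 without 1 mouse. Centring gave 1 lower for the knockout without stress in CD4 cells. The cause was not tested.

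With the mouse number as a replicate block, 1 member was called higher in knockout CD4 cells and 0 in wild-type CD8a cells. Same-numbered mice did not deviate together (correlations -0.24 to 0.24), so they share only a number.

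Of single-gene results, 1010 alternatives of called genes kept the call, 38 lost it and 0 changed sign. Signs changed only among uncalled genes. In knockout mice the change after stress ran, without 1 mouse, from -0.012 to 0.286 for Zfp467 in CD4 cells, and from -0.0598 to 0.137 for Zbtb8os and -0.0369 to 0.176 for Zfp444 in CD8a cells. For CD8a minus CD4, centring gave Zbtb20 0.0513, Zfp292 0.0490 and Zfp871 0.0225. Without 1 mouse it ran from -0.0447 to 0.0232 for Zbtb20, from -0.0318 to 0.00328 for Zfp292 and from -0.0176 to 0.0693 for Zfp950. Centring moved the median of all genes in wild-type CD8a cells from 0.09 to 0.29, with 1142 genes higher and 854 lower in place of 563 and 875, and the members' median was then -0.59. In wild-type CD4 cells it gave 1013 higher and 697 lower in place of 748 and 698. Depth is unknown, so counting error could not be set beside the spread between mice.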
